A study of Homo sapiens with 6 samples.

Results

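The genes described here encode the SR proteins and the heterogeneous nuclear ribonucleoproteins (hnRNPs), with the polypyrimidine tract-binding (PTBP) and poly(C)-binding (PCBP) proteins counted among the latter. They were taken by symbol from the deposited table of read counts (SRSF genes, TRA2A and TRA2B, HNRNP genes, PTBP1, PTBP2 and PTBP3, and PCBP1, PCBP2, PCBP3 and PCBP4), and 86 rows of hnRNP pseudogenes were left out. This gave 46 genes of 36517 in the table. Of the 46 members, 40 had enough reads to be tested, and 6 did not (SRSF12, PCBP3, HNRNPCL1, HNRNPCL2, HNRNPCL3 and HNRNPCL4), with at most 14 counts in any library.

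SR proteins bind exons of a pre-mRNA through RNA recognition motifs and recruit the splicing machinery through a domain rich in arginine and serine, which kinases and phosphatases switch on and off. HnRNPs coat nascent transcripts and often oppose SR proteins at the same exon, so that the balance between the 2 families helps to decide which exons are kept. Many members of both families also regulate their own transcripts by splicing in exons that send the mRNA to nonsense-mediated decay.

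Polyadenylated RNA was sequenced in MDA-MB-453, a human breast cancer cell line, with 3 libraries in each of 2 groups, all labelled day 3. In the control group the cells carried a lentiviral negative-control hairpin. In the group called shtRF they carried a lentiviral hairpin against tRF-1-Ser, a small RNA cut from the precursor of a serine transfer RNA. Both groups were kept in the same medium with serum, and the study describes them as stable lines without saying whether either came from a clone. The comparison asks which transcripts differ in level between cells with the hairpin against tRF-1-Ser and control cells. Hairpin and line coincide with group, so lowering of tRF-1-Ser cannot be told apart from other effects of the hairpin or line. The level of tRF-1-Ser itself was not analysed here.

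The libraries held between 63541413 and 78917459 counts. Of the epithelial and breast cancer markers examined, ERBB2 ranged over 345 to 426 CPM (counts scaled to the size of the library by the TMM method), EPCAM over 478 to 566, KRT8 over 1531 to 2849 and KRT18 over 373 to 630 across the libraries, and the hormone receptors ESR1 and PGR stayed at or below 0.37 and 0.387 CPM. The leukocyte and endothelial markers PTPRC, CD3E and PECAM1 and the fibroblast marker DCN had at most 10 counts in any library, whereas COL1A1, also made by fibroblasts, stood at 20.5 to 35.2 CPM. The study calls its sequencing replicates biological, but whether they were separate cultures or transductions is not stated in the labels. The p-values therefore measure the spread between these libraries, which may be technical in part.

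More members were lower than higher in shtRF cells. By edgeR's quasi-likelihood test with Benjamini-Hochberg adjustment over all 19628 tested genes, 17 of the 40 tested members (42.5%) fell at an adjusted p under 0.05 and 2 (5%) rose, against 18.9% lower and 20.6% higher among all tested genes. The members that fell were SRSF1, SRSF2, SRSF3, SRSF7, TRA2B, HNRNPA1, HNRNPA1L2, HNRNPDL, HNRNPC, HNRNPH1, HNRNPK, PCBP1, PCBP2, HNRNPL, PTBP1, PTBP2 and HNRNPUL1, and those that rose were SRSF11 and HNRNPH3. The changes were small: the fold between group means ran from 0.582 for PTBP2 to 1.21 for SRSF11, and none of the 40 tested members reached 2-fold. The median log2 fold change (shtRF against control) was -0.10 over the members and -0.003 over all tested genes. The median of the members was -0.15 when limma was run on log2-transformed RPKM, a unit of reads divided by exonic length and library size. That run used library totals without TMM factors. Its median over all genes is not given here, so its -0.15 cannot be set against -0.003. The libraries are of bulk RNA scaled to their totals, so fewer cells of a type and less RNA per cell cannot be told apart.

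The members are abundant genes, with a median of 298 CPM against 7.57 CPM over all tested genes, and abundant genes have more reads behind each test. Among the 8926 tested genes with a mean of at least 10 CPM, 24.8% were lower and 31.6% higher, and of the 39 members in this range 41% were lower and 5.13% higher. Among the 1954 genes with a mean of at least 100 CPM, 24.6% were lower and 39.4% higher, and of the 29 members in this range 41.4% were lower and 6.9% higher. At each level of abundance the share of members lower in shtRF cells was above that of all genes, and the share higher was below it. Counting only separation of the libraries, all 3 shtRF values lay below all 3 control values for 21 members and above them for 4, where 23.8% and 24.9% of all tested genes did so.

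**Figure D1:**
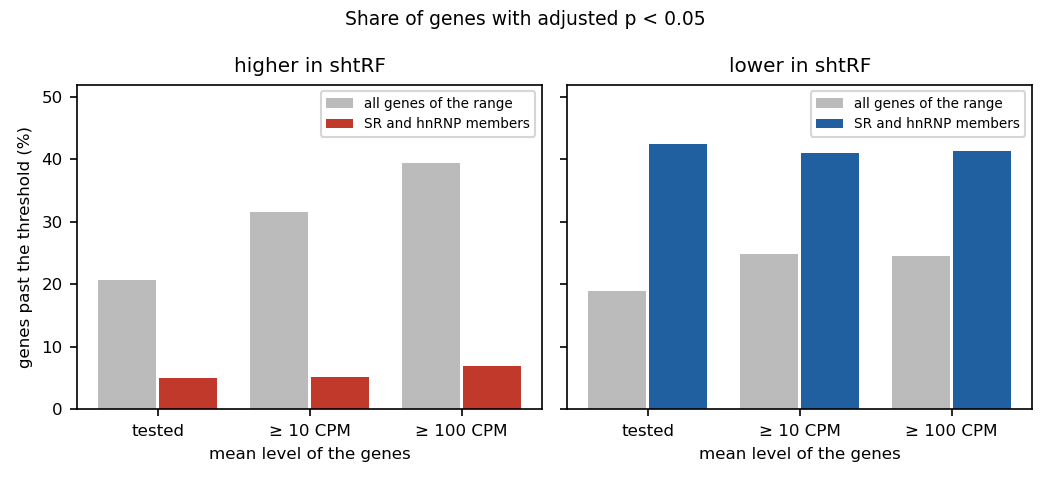
Percentage of genes past an adjusted p of 0.05 (edgeR) that were higher (left) or lower (right) in shtRF cells, for all genes (grey) and for the SR and hnRNP members (colour) in 3 ranges of mean level. Of all tested members 42.5% were lower and 5% higher, against 18.9% and 20.6% of all tested genes.

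**Figure D2:**
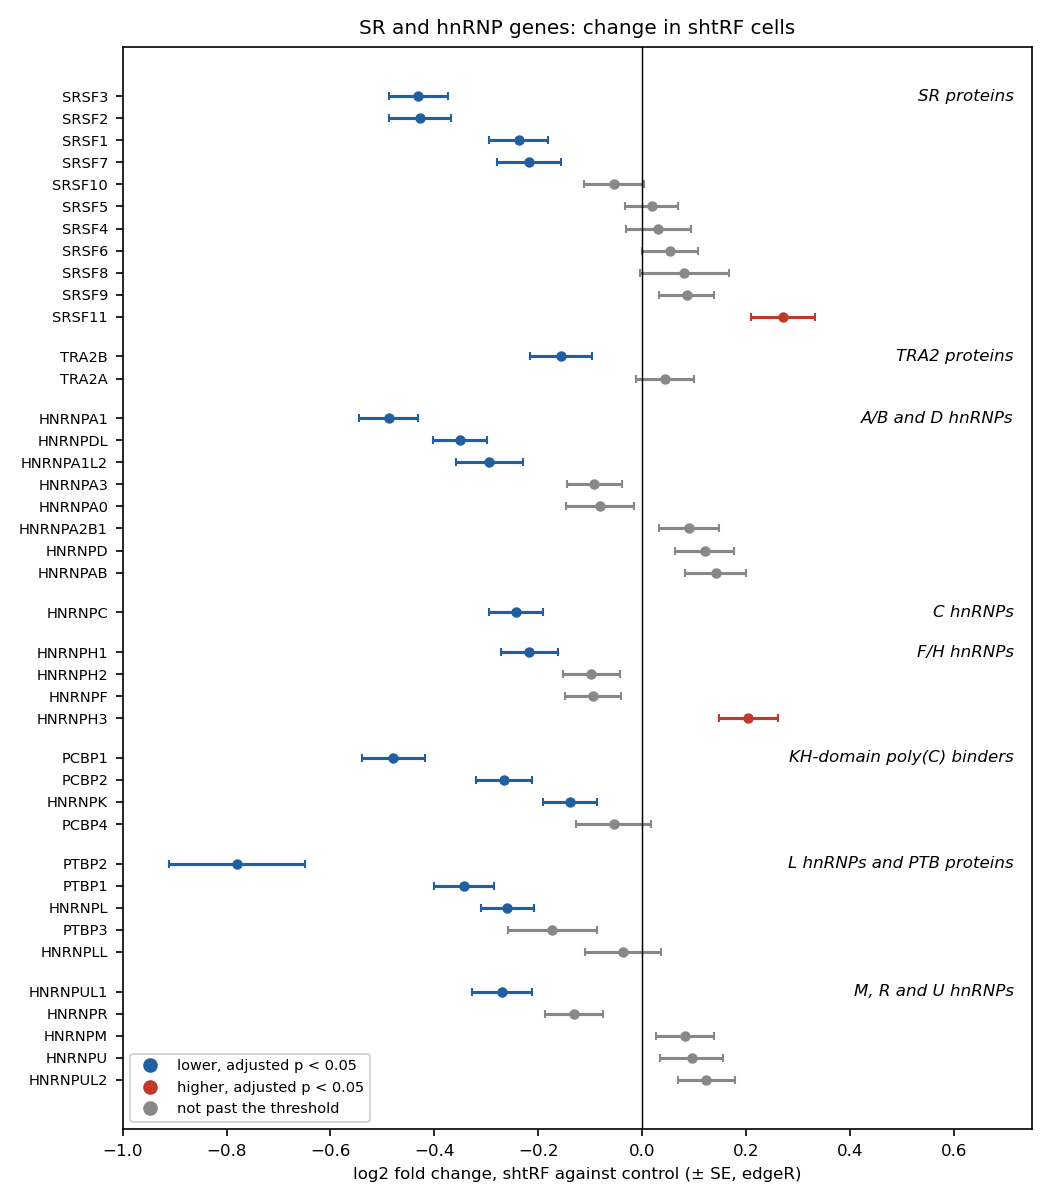
Log2 fold change of each of the 40 tested members, shtRF against control, with the standard error of the edgeR fit, grouped by class. Blue points are lower and red points higher at an adjusted p under 0.05, and grey points did not pass; the lowest is PTBP2 at -0.78 and the highest SRSF11 at 0.27.

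Per exonic length the tested members ranged widely. In control cells HNRNPA1 stood highest at 667 RPKM (scaled by edgeR's TMM factors) and PTBP2 lowest at 0.361. HNRNPA2B1 at 502 RPKM came next to HNRNPA1 in control cells, and in shtRF cells the order of this pair was the other way round, at 535 RPKM for HNRNPA2B1 and 476 for HNRNPA1. This change of order rests on the exonic lengths (5093 bases for HNRNPA1 and 7541 for HNRNPA2B1), since in CPM HNRNPA1 was the lower of them in both groups. The length used counts all annotated exonic bases of a gene, so a gene with long exons that the cells do not use is understated on this scale.

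**Figure D3:**
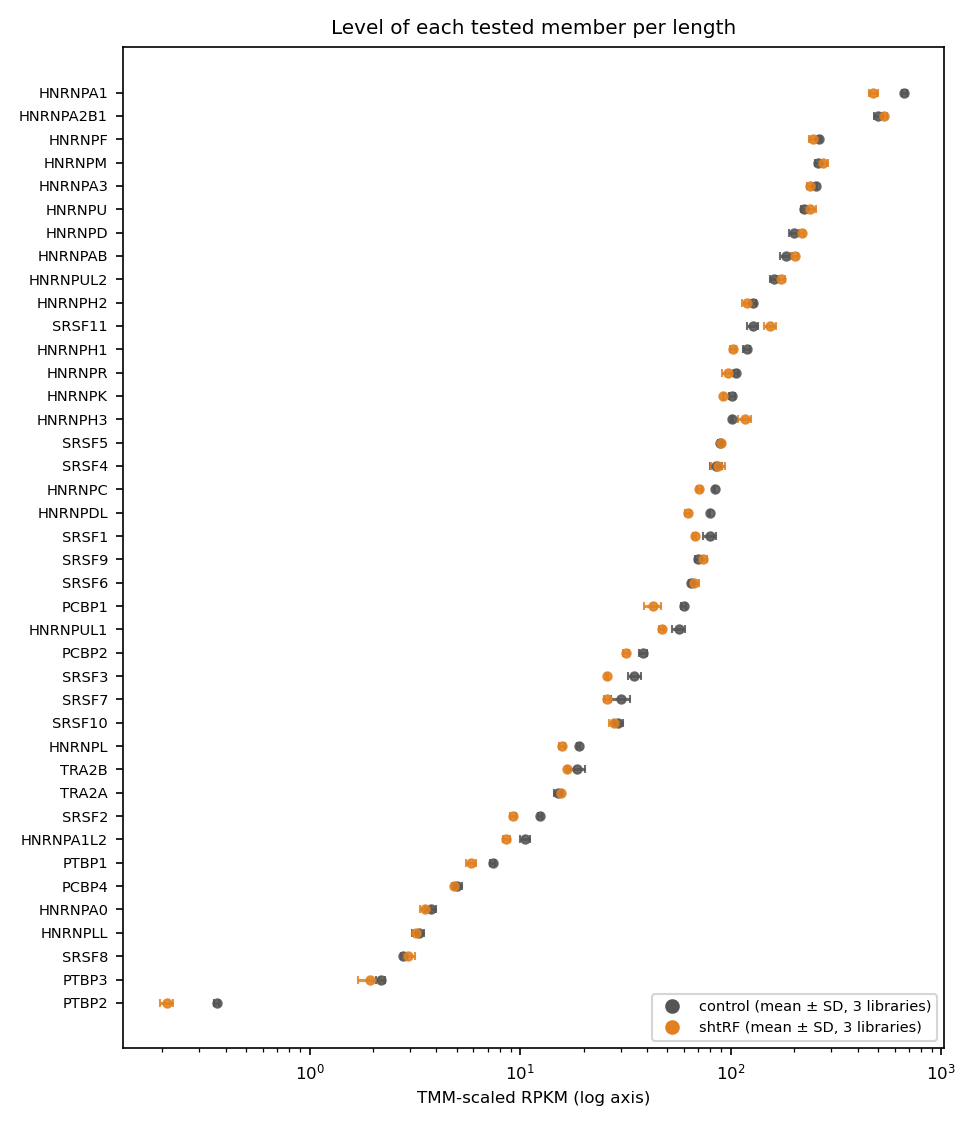
Mean level of each tested member per exonic length (TMM-scaled RPKM, log axis) in control (grey) and shtRF (orange) cells, with bars for the SD of 3 libraries. HNRNPA1 falls from 667 to 476 RPKM and passes below HNRNPA2B1 on this scale of level per length; in CPM it was below in both groups.

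Promoter sequences from RefSeq (GRCh38.p14) were read for 3 members that moved, to show what stands upstream of the SR protein gene with the largest fall (SRSF3), of the SR protein gene that rose (SRSF11) and of an A/B and D hnRNP gene that fell (HNRNPDL). Each is given 5′ to 3′ on the strand of its gene, and ends before the start of the gene in the count table. Capitals mark matches, on either strand, to the motifs named after them.
SRSF3, chr6:36594242-36594352, plus strand: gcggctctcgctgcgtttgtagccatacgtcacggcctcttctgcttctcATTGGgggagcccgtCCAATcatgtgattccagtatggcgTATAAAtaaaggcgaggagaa
SRSF11, chr1:70205576-70205681, plus strand: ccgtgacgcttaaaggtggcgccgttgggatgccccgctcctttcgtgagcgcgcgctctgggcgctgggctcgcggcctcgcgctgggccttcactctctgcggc
HNRNPDL, chr4:82430463-82430582, minus strand: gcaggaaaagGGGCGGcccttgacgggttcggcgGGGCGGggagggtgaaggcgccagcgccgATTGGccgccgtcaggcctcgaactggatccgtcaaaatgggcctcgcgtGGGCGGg
The stretch before SRSF3 held 2 CCAAT boxes and 1 TATA box, that before HNRNPDL held 3 GC boxes and 1 CCAAT box, and that before SRSF11 held none of the motifs searched. No matches overlapped in these stretches.

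The same motifs were counted on both strands in the 250 bases before the start of 58 RefSeq promoters of 41 members and of 35116 promoters of all genes, each motif by itself even where matches to different motifs shared bases. The GC box of SP and KLF factors (GGGCGG) stood in 62.1% of the members' promoters and in 42.6% of all promoters, and the CCAAT box of NF-Y in 41.4% and 32%. The E-box of MYC and MAX (CACGTG) stood in 12.1% against 6.34%, the NRF1 motif in 12.1% against 5.07% and the ETS core (CCGGAAG) in 12.1% against 8.52%. The TATA box (TATAAA) stood in 10.3% against 10.7%, and the cAMP response element (TGACGTCA) in 0% against 1.65%. The set of all promoters was not matched to the abundant members in expression level, so these differences may not be particular to the family. Within the family, the GC box was in 72% of 25 promoters of members that fell, 40% of 5 promoters of members that rose and 62.5% of 24 promoters of tested members without a call. The CCAAT box was in 32%, 20% and 54.2% of them, and the E-box in 8%, 20% and 16.7%. The promoters of members that fell belong to 15 of the 17 such members, since HNRNPA1 and SRSF2 had no promoter among those read. Several promoters belong to the same gene, and these shares are descriptions with no test.

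Of the 12 SR protein genes 11 were tested, and 4 fell, 1 rose and 6 did not pass. For the counts of this and the following classes, 18.9% of all tested genes were lower and 20.6% higher. Among genes with at least 10 CPM these shares were 24.8% and 31.6%. SRSF3, the smallest SR protein and a binder of CU-rich sequences (chromosome 6, 36594353 to 36605600, plus strand), had 228, 255 and 262 CPM in control and 186, 183 and 183 CPM in shtRF libraries. All shtRF values lay below all control values and within a far narrower range (means 248 ± 17.9 and 184 ± 1.75, SD, n = 3 each). Its log2 fold change was -0.43 ± 0.057 (SE), with an adjusted p of 2.39e-06. SRSF2 (SC35, chromosome 17, 76734115 to 76737374, minus strand), an activator of exon inclusion also known as a marker of nuclear speckles, had 37.14, 38.51 and 36.97 CPM in control and 29.04, 27.54 and 27.12 in shtRF libraries. The groups stood well apart, with a log2 fold change of -0.43 ± 0.06 and an adjusted p of 5.67e-06. Of the exonic bases of SRSF2, 36.7% also lie in MFSD11 on the other strand, whose own change was -0.10 with an adjusted p of 0.211.

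SRSF1, the founding SR protein and a proto-oncogene product, had 246, 266 and 284 CPM in control and 222, 230 and 223 in shtRF libraries, a log2 fold change of -0.24 ± 0.057 with an adjusted p of 0.00183. The groups did not overlap. Of its exonic bases 23.1% lie in other genes, with 13.2% in the opposite-strand RP11-159D12.6, which fell by 0.54 on the log2 scale (adjusted p = 4.1e-06). SRSF7, a close relative of SRSF3 with a zinc knuckle, had 113, 117 and 136 CPM against 108, 103 and 103, a log2 fold change of -0.22 ± 0.062 with an adjusted p of 0.00789. Control replicate 3 stood highest, and without it the change was -0.13 with an adjusted p of 0.0658.

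SRSF11 (p54, chromosome 1, 70205682 to 70253052, plus strand) was the most abundant SR protein gene per length, at 127 RPKM in control cells, and the SR protein gene that rose. It had 1095, 1003 and 1134 CPM in control and 1206, 1362 and 1332 CPM in shtRF libraries. Every shtRF library was above every control library, by a margin that was narrowest for shtRF replicate 1 (means 1077 ± 67.0 and 1300 ± 82.6). The log2 fold change was 0.27 ± 0.061, with an adjusted p of 0.00112. The other tested SR genes did not pass. Their log2 fold changes were 0.03 for SRSF4, 0.02 for SRSF5, 0.05 for SRSF6, 0.08 for SRSF8, 0.09 for SRSF9 and -0.05 for SRSF10, with standard errors of 0.051 to 0.086 and adjusted p-values from 0.217 to 0.819. SRSF8, an expressed retrocopy of SRSF2, had 11.45, 11.08 and 11.01 CPM in control and 11.96, 10.86 and 12.68 CPM in shtRF libraries, with overlapping groups.

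Of the TRA2 proteins, splicing activators that bind GAA-rich exons, TRA2B (chromosome 3, 185915906 to 185938136, minus strand) had 203, 213 and 242 CPM in control and 195, 197 and 199 in shtRF libraries. The groups did not overlap, but control replicate 1 was close to the highest shtRF library. The log2 fold change was -0.16 ± 0.06 with an adjusted p of 0.0444, and the call was lost without control replicate 3 (-0.08, adjusted p = 0.293) and when each shtRF replicate in turn was left out (adjusted p from 0.0849 to 0.109). TRA2A was at 53.0 ± 2.29 and 54.6 ± 1.27 CPM, with a log2 fold change of 0.04 and an adjusted p of 0.574.

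Of the 8 A/B and D hnRNPs 3 fell and 5 did not pass. HNRNPA1 (chromosome 12, 54280193 to 54287088, plus strand), a repressor of exon inclusion that moves between nucleus and cytoplasm, had 3473, 3295 and 3430 CPM in control and 2308, 2549 and 2413 in shtRF libraries. All shtRF libraries lay far below all control libraries (means 3399 ± 93.1 and 2423 ± 121). Its log2 fold change was -0.49 ± 0.057 with an adjusted p of 4.6e-07. It is also the member with the largest change in CPM. Summed over all 46 members, the level was 26330 ± 727 CPM in control and 25480 ± 980 in shtRF cells, and without HNRNPA1 it was 22930 ± 662 and 23060 ± 864.

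HNRNPA2B1 (chromosome 7, 26189927 to 26201529, minus strand), a close relative of HNRNPA1 that binds similar UAG-containing motifs, had 3698, 3657 and 4014 CPM in control and 3903, 4141 and 4054 in shtRF libraries. The groups overlapped, and the log2 fold change of 0.09 ± 0.058 did not pass (adjusted p = 0.238). The share of HNRNPA1 in the summed CPM of the A/B and D class was 31.5%, 30.95% and 30.3% for the control replicates and 23.3%, 24.1% and 23.6% for the shtRF replicates.

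HNRNPDL, a relative of HNRNPD (AUF1) that resides in the neighbouring stretch of chromosome 4 (82422564 to 82430408, minus strand), had 437, 435 and 434 CPM in control and 342, 352 and 330 in shtRF libraries. The control libraries were nearly equal and the shtRF libraries were all lower, with a log2 fold change of -0.35 ± 0.052 and an adjusted p of 1.05e-05. HNRNPA1L2, a retrocopy of HNRNPA1 on chromosome 13, was at 31.8 ± 1.63 CPM in control and 25.9 ± 0.93 in shtRF cells (log2 fold change -0.29, adjusted p = 0.000856). Of the 150-base windows of HNRNPA1L2 transcripts, 13.2% occur unchanged in HNRNPA1, so some of its reads cannot be assigned to either. HNRNPD and HNRNPAB, which bind AU-rich and related elements, were above control in every shtRF library without passing the test (log2 fold changes 0.12 and 0.14, adjusted p = 0.102 and 0.0562). HNRNPA3 lay below control in every shtRF library (-0.09, adjusted p = 0.188), and HNRNPA0, a regulator of AU-rich transcripts, overlapped between groups (-0.08, adjusted p = 0.355).

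HNRNPC, which packages nascent RNA and masks uridine tracts, was the only tested member of its class (chromosome 14, 21209136 to 21269494, minus strand). It had 611, 610 and 618 CPM in control and 508, 533 and 513 in shtRF libraries. The shtRF libraries all lay below the narrow range of the control libraries, and the log2 fold change was -0.24 ± 0.052 with an adjusted p of 0.000646. The 4 HNRNPCL genes, intronless copies of HNRNPC, were close to 0 counts as given above.

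The 4 F/H hnRNPs, which bind G tracts, moved in both directions. HNRNPH1 (chromosome 5, 179614178 to 179634784, minus strand) had 1153, 1083 and 1147 CPM in control and 937, 989 and 984 in shtRF libraries, and fell with a log2 fold change of -0.22 ± 0.054 (adjusted p = 0.00266). HNRNPH3 (chromosome 10, 68331174 to 68343191, plus strand), a shorter relative with fewer RNA recognition motifs, had 542, 540 and 550 CPM in control and 577, 655 and 647 in shtRF libraries, and rose with a log2 fold change of 0.20 ± 0.057 (adjusted p = 0.00634). In both genes the groups did not overlap, with shtRF replicate 1 nearest to control in HNRNPH3 and farthest from it in HNRNPH1. HNRNPF, the most abundant of the class per length at 264 RPKM in control cells, had 846, 858 and 869 CPM in control and 766, 842 and 803 in shtRF libraries. Its shtRF libraries were all lower, but the change of -0.10 ± 0.054 did not pass (adjusted p = 0.179). HNRNPH2 gave -0.10 (adjusted p = 0.175), and 16.3% of its exonic bases lie in the readthrough RPL36A-HNRNPH2, which fell by 0.33 on the log2 scale (adjusted p = 0.000138).

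Of the KH-domain proteins that bind poly(C), 3 of 4 tested genes fell. PCBP1 (chromosome 2, 70087454 to 70089203, plus strand), an intronless gene whose product stabilises mRNAs and delivers iron, had 103, 108 and 103 CPM in control and 81.8, 75.1 and 68.0 in shtRF libraries. The groups did not overlap, and the log2 fold change was -0.48 ± 0.061 with an adjusted p of 1.61e-06. Of its exonic bases 52.2% lie under PCBP1-AS1 on the other strand, which was itself lower (-0.43, adjusted p = 6.35e-06), and since the strand setting of the counting is not stated, the reads of these genes cannot be told apart there. HNRNPK (chromosome 9, 83968083 to 83980616, minus strand), the most abundant of the class per length, had 510, 506 and 536 CPM in control and 472, 471 and 467 in shtRF libraries, without overlap. Its log2 fold change of -0.14 ± 0.052 passed narrowly (adjusted p = 0.038), and leaving out control replicate 1 or 3 or shtRF replicate 2 or 3 gave adjusted p-values of 0.0554 to 0.135. PCBP2, from which PCBP1 is thought to have been copied, fell from 303 ± 12.6 to 252 ± 8.36 CPM (-0.27, adjusted p = 0.000381), with 32.7% of its exonic bases in other genes, MAP3K12 first among them (0.10, adjusted p = 0.371). PCBP4 was at 18.8 ± 0.933 and 18.1 ± 0.279 CPM (adjusted p = 0.587).

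Of the L hnRNPs and PTB proteins, repressors that bind CA repeats and pyrimidine tracts, 3 of 5 fell. HNRNPL (chromosome 19, 38836388 to 38852347, minus strand), the most abundant of them per length, had 128, 131 and 129 CPM in control and 110, 104 and 109 in shtRF libraries, with a log2 fold change of -0.26 ± 0.051 and an adjusted p of 0.000316. The groups did not overlap. PTBP2 (chromosome 1, 96721665 to 96823738, plus strand), the paralogue best known from neurons, had the largest fold change of all members in the edgeR fit, from a low level. Its counts were 310, 356 and 363 in control and 206, 174 and 167 in shtRF libraries, or 4.77, 4.71 and 4.55 CPM against 2.93, 2.53 and 2.69. The libraries of each group lay close together and far from the other group, with a log2 fold change of -0.78 ± 0.131 and an adjusted p of 5.31e-05. PTBP1 (chromosome 19, 797075 to 812327, plus strand), which represses PTBP2 through exon skipping in many cells, had 50.2, 52.6 and 50.1 CPM in control and 42.6, 38.2 and 39.7 in shtRF libraries (log2 fold change -0.34 ± 0.058, adjusted p = 6.09e-05). PTBP3 at 17.9 ± 0.952 and 15.9 ± 1.88 CPM (-0.17, adjusted p = 0.117) and HNRNPLL at 19.5 ± 1.26 and 19.0 ± 0.678 CPM (-0.04, adjusted p = 0.737) did not pass.

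Of the M, R and U hnRNPs, which include scaffold proteins of the nucleus, 1 of 5 fell. This is near the share of all tested genes that were lower (18.9%, or 24.6% of those with at least 100 CPM). HNRNPUL1 (chromosome 19, 41262496 to 41307598, plus strand), a U-like protein also recruited to DNA breaks, had 372, 397 and 345 CPM in control and 307, 316 and 300 in shtRF libraries. The groups did not overlap, and the log2 fold change was -0.27 ± 0.057 with an adjusted p of 0.000592. HNRNPM, the most abundant of the class per length, had 1455, 1415 and 1509 CPM in control and 1465, 1610 and 1561 in shtRF libraries, with overlapping groups (0.08 ± 0.056, adjusted p = 0.269). HNRNPU, or scaffold attachment factor A, was at 3011 ± 94.6 and 3216 ± 217 CPM (0.10, adjusted p = 0.228). Of its exonic bases 25.8% lie in COX20 on the other strand. HNRNPUL2 gave 0.12 (adjusted p = 0.0838), with 44.5% of its exonic bases shared with the readthrough HNRNPUL2-BSCL2. HNRNPR lay below control in every shtRF library (-0.13, adjusted p = 0.0696) and passed the threshold in 9 of 16 alternative analyses. HNRNPU and HNRNPUL2, with HNRNPAB, are the members that passed as higher without shtRF replicate 1, which raised the count of higher members from 2 to 5.

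**Figure D4:**
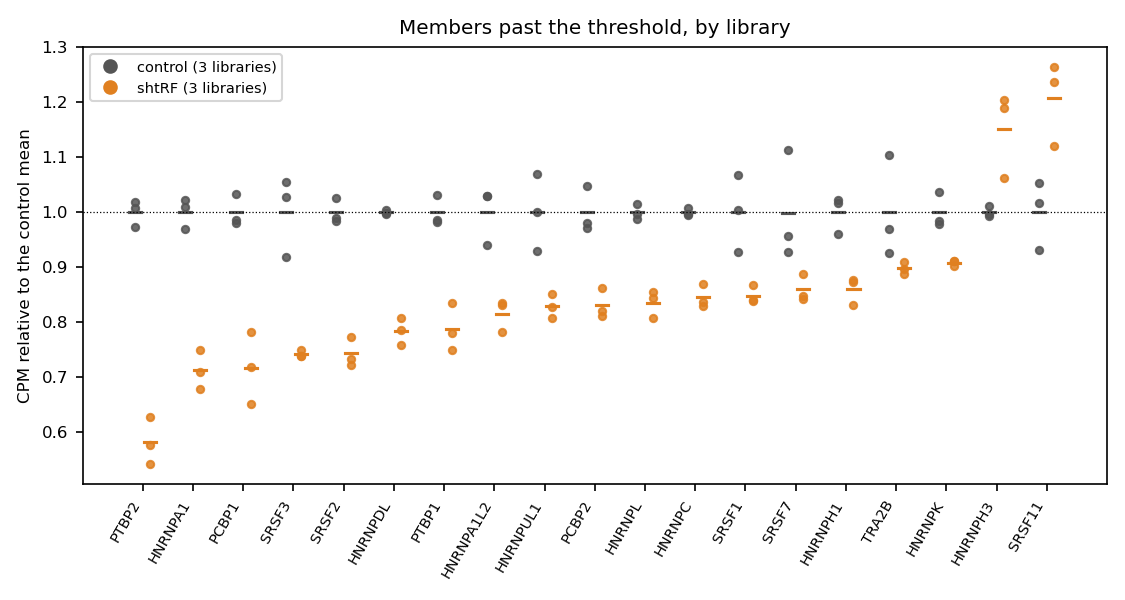
CPM of each member past the threshold in each library, divided by its mean over the 3 control libraries (grey control, orange shtRF, short lines the group means), ordered by change. The shtRF libraries of all 17 lower members lie below the control libraries, from PTBP2 with a fold of 0.582 to HNRNPK with 0.908, and those of HNRNPH3 and SRSF11 lie above.

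Summed by class, the CPM of the C hnRNPs was 613 ± 4.51 in control and 518 ± 13.3 in shtRF cells, that of the KH-domain proteins 944 ± 11.3 and 815 ± 16.7, and that of the L hnRNPs and PTB proteins 222 ± 3.02 and 186 ± 6.64. These sums differed by far more than their SDs, and the C sum is almost wholly that of HNRNPC. The A/B and D hnRNPs summed to 11000 ± 345 CPM in control and 10230 ± 351 in shtRF cells. The F/H hnRNPs summed to 2814 ± 50.4 and 2666 ± 121, and the TRA2 proteins to 272 ± 22.4 and 251 ± 1.9. In the A/B and D, F/H and TRA2 sums the groups separated only narrowly. HNRNPA1 alone went from 3399 to 2423 CPM, a larger fall than that of the summed A/B and D class. For every class whose sum fell, an exact permutation test gave p = 0.10, the smallest possible with 3 against 3 libraries. The sum of the SR proteins was 3853 ± 165 and 3984 ± 163 CPM and that of the M, R and U hnRNPs 6608 ± 143 and 6829 ± 371, both with overlapping libraries. These sums follow the most abundant genes of each class, SRSF11 and HNRNPU among them.

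Since relatives often act on the same exons, the log2 ratio of the counts of paralogues was compared within each library for 17 pairs. The ratio did not overlap between groups in 13 pairs, 9 of them lower and 4 higher in shtRF cells. The share among other pairs of genes was not computed, so this count has no background. With 3 against 3 libraries the smallest two-sided p of an exact permutation test is 0.10, so no pair could reach 0.05. The log2 ratio of HNRNPA1 to HNRNPA2B1 was -0.09, -0.15 and -0.23 in control and -0.76, -0.70 and -0.75 in shtRF libraries, a shift of -0.58 against SDs of 0.068 and 0.031. The ratio of SRSF2 to SRSF8 moved from 1.75 ± 0.05 to 1.24 ± 0.127, a shift of -0.51. These were the 2 pairs that moved by over 0.5.

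Other pairs also separated. The ratio of HNRNPD to its neighbour HNRNPDL moved by 0.47, that of PTBP1 to PTBP2 by 0.44, that of HNRNPUL1 to HNRNPUL2 by -0.39 and that of SRSF1 to SRSF9 by -0.32. Of the exonic bases of SRSF9, 46.2% lie in GATC on the other strand, and 23.1% of those of SRSF1 lie in other genes. PTBP1 and PTBP2 both fell, and PTBP2 by the larger factor. Smaller shifts without overlap were seen for HNRNPL to HNRNPLL (-0.23), PCBP1 to PCBP2 (-0.22), SRSF3 to SRSF7 (-0.22), TRA2A to TRA2B (0.20), HNRNPA3 to HNRNPA2B1 (-0.18), HNRNPF to HNRNPH1 (0.12) and HNRNPH1 to HNRNPH2 (-0.12). The ratios of SRSF4 to SRSF6 (-0.02), SRSF5 to SRSF6 (-0.03), HNRNPD to HNRNPAB (-0.02) and PTBP1 to PTBP3 (-0.17) overlapped between groups. The pairs of SRSF10 with SRSF12 and of PCBP3 with PCBP4 each have an untested member and were not compared.

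**Figure D5:**
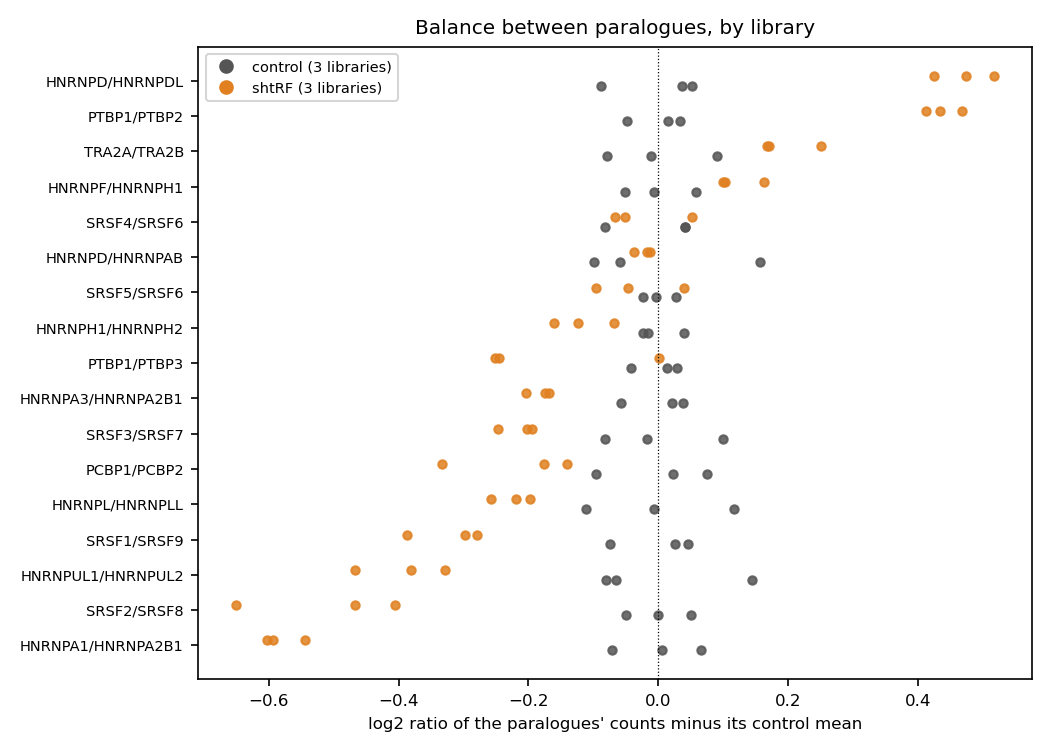
Log2 ratio of the counts of paralogues in each library, minus its mean over the control libraries (grey control, orange shtRF; 3 libraries each). The mean shift is lowest for HNRNPA1/HNRNPA2B1 at -0.58, followed by SRSF2/SRSF8 at -0.51, whose shtRF points spread more widely, and highest for HNRNPD/HNRNPDL at 0.47; 4 pairs overlap with control.

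The enzymes that modify SR proteins and hnRNPs and the factors that carry them were listed apart. Of 28 genes, all tested, 12 fell and 8 rose, with a median log2 fold change of -0.04, where 18.9% of all tested genes were lower and 20.6% higher. Among tested genes with at least 10 CPM 24.8% were lower and 31.6% higher. With limma 4 of the 28 genes rose and 12 fell. The largest falls were of PRMT6, an arginine methyltransferase, from 11.04 ± 0.583 to 5.79 ± 0.489 CPM (-0.93, adjusted p = 1.01e-07), and of PPP1CC, a catalytic subunit of protein phosphatase 1, from 34.4 ± 2.04 to 21.0 ± 1.72 CPM (-0.71, adjusted p = 4.63e-08). The largest rises were of JMJD6, a hydroxylase of splicing factors, from 31.4 ± 4.82 to 42.2 ± 0.904 CPM (0.42, adjusted p = 0.000156), and of SRPK3, an SR protein kinase best known from muscle, from 5.67 ± 0.61 to 7.35 ± 0.594 CPM (0.38, adjusted p = 0.0102). Of the exonic bases of SRPK3 30.2% lie in other genes.

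Of 44 SR-related splicing proteins, which carry an arginine and serine-rich stretch or bind such proteins, 42 were tested, and 10 rose and 6 fell (median 0.04). All tested genes gave 20.6% higher and 18.9% lower, and those with at least 10 CPM 31.6% and 24.8%. With upper-quartile scaling 8 rose and 8 fell, and with limma 7 rose and 10 fell at either pseudocount. The balance of directions thus depended on the scaling or the test, and the limma runs, without TMM factors, differed from edgeR in both. ZRSR2, which recognises the 3′ splice site of minor introns, went from 109 ± 8.08 to 183 ± 9.26 CPM (0.74, adjusted p = 1.76e-09), and U2AF1L4, a relative of the small subunit of U2AF, from 6.23 ± 0.607 to 9.68 ± 0.782 CPM (0.64, adjusted p = 3.58e-05, 30.3% of exonic bases in other genes). The L-type cyclins, which bind splicing factors, had the largest falls, CCNL1 with -0.37 (adjusted p = 2.95e-05) and CCNL2 with -0.29 (adjusted p = 0.000455).

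Of 50 other RNA-binding proteins of the hnRNP kind 47 were tested, and 22 fell and 8 rose (median -0.13), against 18.9% lower and 20.6% higher among all tested genes and 24.8% and 31.6% among those with at least 10 CPM. QKI, a STAR-family splicing regulator, fell from 31.8 ± 1.36 to 18.8 ± 0.85 CPM (-0.76, adjusted p = 6.95e-09) and MSI2, a translational regulator of stem cells, from 43.1 ± 0.855 to 29.1 ± 0.825 CPM (-0.57, adjusted p = 6.76e-08). SAFB2, a scaffold attachment factor, rose from 509 ± 33.1 to 683 ± 47.5 CPM (0.42, adjusted p = 8.81e-06), and its relative SLTM from 1256 ± 88.1 to 1641 ± 134 CPM (0.39, adjusted p = 5.68e-05).

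Of 24 factors of nonsense-mediated decay and the exon junction complex, 5 rose and 5 fell (median 0.03). Among all tested genes 20.6% were higher and 18.9% lower, and among those with at least 10 CPM 31.6% and 24.8%. UPF3A, a paralogue of the decay activator UPF3B, went from 175 ± 13.8 to 256 ± 17.0 CPM (0.55, adjusted p = 3.46e-07) and SMG9, a regulator of the kinase SMG1, from 13.6 ± 1.0 to 16.9 ± 0.569 CPM (0.32, adjusted p = 0.00267). The core junction proteins RBM8A (Y14) and EIF4A3 had the largest falls, from 228 ± 1.44 to 171 ± 7.0 CPM (-0.41, adjusted p = 1.37e-06, with 26.9% of exonic bases in other genes) and from 91.8 ± 2.17 to 74.0 ± 0.606 CPM (-0.31, adjusted p = 4.09e-05). Counts per gene pool all transcripts, so productive isoforms and those with a premature stop were not told apart in any of these genes.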

How the data were processed

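Strand-specific libraries of polyadenylated RNA were sequenced as read pairs. The submitters' processing notes name Trimmomatic 0.36, featureCounts, Subread 1.5.1, edgeR 3.12.1 and the build GRCh38; the aligner, annotation release and strand setting are not given in the sources used here. The authors deposited raw counts per gene, used for all tests, and a table of RPKM, held here in part: 4991 rows matched by symbol, all equal to the count divided by length and library total within a relative tolerance of 0.001. Between 74.2% and 77.1% of counts of 1 to 4 were even, as when both mates of a pair are counted.

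Groups came from the sample titles. Counts were filtered (filterByExpr, minimum count 10), scaled (TMM factors 0.961 to 1.03) and fitted on 19628 genes with edgeR 4.0.16 (R 4.3.3; common dispersion 0.00572, a coefficient of variation of 7.56%) by the quasi-likelihood test with group as the only term and Benjamini-Hochberg adjustment. Scripts were tested on simulated data. Alternatives were RLE and upper-quartile scaling, other filters, DESeq2 1.42.0, limma 3.58.1 on log2(RPKM + 1) and log2(RPKM + 0.1), a replicate block, counts divided by 2, genes with under 10% of exonic bases in other genes, and each library left out. Paralogue ratios used a prior count of 0.5.

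Members, classes, pairs and lists were chosen with earlier results of these data known. Every member is named. Values in every library are given for the most abundant member per length and the largest significant rise and fall of each class. They are also given for pairs whose ratio moved by over 0.5. From each list the 2 largest significant rises and falls with a mean of at least 1 CPM are given. Values by library of other members that passed the test were added, except for HNRNPA1L2 and PCBP2, given as means and SDs.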

Additional observations from a re-analysis of the deposited data

How the results depend on the processing

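The 40 tested members were refitted under 16 alternatives. Of 632 values, 588 kept direction and side of the threshold, 10 lost the call, 20 gained it and 14 changed sign. Of the 19 called members 16 kept their call in every alternative that tested them, 2 higher and 14 lower; the others were SRSF7, TRA2B and HNRNPK. Lower members numbered 14 to 21, and 14 to 17 with a library left out. Higher members numbered 2 in the alternatives that kept all libraries and 2 to 5 with a library left out, 5 without shtRF replicate 1. The median of the members was -0.13 with upper-quartile scaling, -0.14 without a filter (6 low members join), -0.15 with limma at either pseudocount (-0.149 and -0.15), and -0.120 to -0.077 with a library left out. RLE and upper-quartile scaling shifted the median of all genes by at most 0.0363. The RPKM given to limma were divided by library totals without TMM factors. Its medians therefore rest on another scaling than those of edgeR, and its median of all genes is not given here.

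With limma (pseudocounts 1 and 0.1) 4 and 4 kinases, phosphatases and carriers were higher, 10 and 10 SR-related genes lower, 5 and 5 hnRNP-like genes higher (5 also with upper-quartile scaling), and 2 and 3 decay and junction factors higher. With a library left out the hnRNP-like genes higher numbered 5 to 10 (5 without control replicate 2, shtRF replicate 2 or shtRF replicate 3), the decay and junction factors higher 4 to 8 (8 without control replicate 3) and lower 3 to 5 (3 without shtRF replicate 2). The separated pairs numbered 13 to 14. The causes were not tested.

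Members without a call changed sign as follows. SRSF4 was at -0.006 with upper-quartile scaling, -0.022 and -0.023 with limma, and -0.028 (without control replicate 2), -0.015 (without shtRF replicate 2) and up to 0.080 (without shtRF replicate 1) with a library left out. SRSF5 was at -0.018 with upper-quartile scaling, -0.035 and -0.035 with limma and -0.003 (without control replicate 2) to 0.025 with a library left out. SRSF6 was at -0.001 and TRA2A at -0.008 with limma at both pseudocounts, and HNRNPLL ranged from -0.091 to 0.003 with a library left out (0.003 without control replicate 1). PTBP2 was at -0.18 with limma at a pseudocount of 1, which exceeds its level.

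Deviations of same-numbered libraries correlated at 0.0185, -0.0029 and 0.0045, so the replicate numbers do not pair the samples; with the replicate block 2 members were higher and 16 lower, HNRNPK losing its call (adjusted p = 0.0566 by edgeR).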

Other observations

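The 86 hnRNP pseudogene rows, left out above, were read by the same edgeR fit. Of these 26 were tested, and 5 fell (HNRNPA1P48, HNRNPA1P7, HNRNPA1P10, HNRNPKP4 and HNRNPH1P1), while the others did not pass. The share that fell was close to the 18.9% of all tested genes, and the median log2 fold change of the 26 was -0.40. The 12 tested HNRNPA1 pseudogenes had a median of -0.43, near the -0.49 of HNRNPA1 itself. Summed over 50 rows they held 32.6 ± 2.19 CPM in control and 24.2 ± 1.56 CPM in shtRF libraries, which is 0.96% ± 0.0827 and 0.998% ± 0.0275 of the counts of HNRNPA1. Of the 150-base windows of HNRNPA1P7, HNRNPA1P10 and HNRNPA1P48, 61.8%, 30.1% and 21.1% occur unchanged in HNRNPA1, so their reads cannot be assigned with certainty. The pseudogenes HNRNPH1P1 and HNRNPKP4, which also fell, had 0% of such windows in common with HNRNPH1 and HNRNPK. Windows of HNRNPA2B1 and HNRNPA3 had 0% in common with HNRNPA1, and so had those of HNRNPH2 with HNRNPH1.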
